A study of Triticum aestivum with 10 samples.

Results

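In wheat anthers, 11 transcripts were bright in the 2 shortest fertile samples and dim in every longer fertile sample, and on the arrays of cold-treated, sterile plants they ranged from retained to partly reduced. The loss of at least 4-fold that selected them on the fertile arrays was met there by 0 of them and by 0 of all probe sets (0%), so that count says nothing particular to them. The transcripts were 11 of 61179 probe sets, the groups of oligonucleotides that each read 1 transcript or a family of near-identical ones on the Affymetrix GeneChip Wheat Genome Array. The 11 were selected on the fertile arrays alone: the lower of the signals at anther lengths of 1.5 and 2.0 mm had to be at least 100 and at least 4 times the highest signal at 2.2, 2.5 and 3.0 mm, after signals under 20 had been raised to a floor of 20. Of all probe sets, 12883 had a lower early fertile signal of at least 100, so the 11 came from these. The fall on the fertile arrays is therefore the criterion and not a finding, and only the sterile arrays are independent of it.

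All arrays came from anthers of BS366, a thermosensitive genic male sterile (TGMS) wheat line. The fertile plants grew at 20 °C and the sterile plants were moved to 10 °C for 5 days, both with a 12 h photoperiod, after natural vernalization in the field. Under each condition anthers were taken at about 1.5 and 2.0 mm, the short anthers, and at about 2.2, 2.5 and 3.0 mm, the longer ones, and all 10 samples were labelled as meiosis stage. The paper on these data reports, from morphology, that mitosis gave way to meiosis I from 2.2 mm onward, and does not name the condition there. There was 1 array for each condition and length, and the sources used here do not say whether each length had plants of its own. The conditions were matched by anther length and not by cytological stage, so that a change caused by cold and a slower passage through development cannot be told apart. Since whole anthers were hybridized, fewer cells of a type and less RNA per cell cannot be told apart either.

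In a developing anther the pollen mother cells pass through meiosis while a nutritive layer, the tapetum, surrounds and feeds them. Many anther transcripts are present for only a short window, switching on or off as cells leave premeiotic growth, complete meiosis and release microspores. In TGMS lines the temperature during this window decides whether the pollen becomes functional, which makes a line such as BS366 useful as the female parent in hybrid seed production.

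The anther identity of the samples was checked with marker genes. The 4 probe sets for raftin1a and raftin1b, which encode tapetum proteins of wheat, gave signals from 242 to 5941 over the 10 arrays. By contrast, 11 probe sets for grain storage proteins had a median signal of 4.98, which is background. LTP3, also listed as a tapetum gene, was not bright throughout. Its brighter probe set read 11.6 to 45.3 on the sterile arrays. On the fertile arrays it read 34.6 to 146 up to 2.5 mm and 2554 at 3.0 mm. The other LTP3 probe set read at most 57.3. Of 36 photosynthesis probe sets, 9 had a lower early fertile signal of at least 100, and the median over all 36 was 12.0. Most of the dim ones were probe sets for rbcl, and these set the median. Photosynthesis transcripts were not absent, since the brightest rbcl probe set read 4604 to 8573 over the 10 arrays. The OEE1 probe set read 672 to 2177, and the brighter one for petC read 587 to 2550. A share of green tissue in the samples was not tested. Mean signals were between 118 and 125 on all arrays, and 45.8% to 49.3% of probe sets were at or under the floor on each. The fertile 2.2 mm array stood apart in its 9 added hybridization controls, whose geometric mean was 614 against 173 to 285 on the others. The fertile 3.0 mm array had the lowest mean correlation with the other arrays (r = 0.879). The array's 18S ribosomal RNA control was brighter on the sterile array at each length, at 2833 against 315 at 1.5 mm and at 32.3 to 135 against 2.22 to 9.26 at the longer lengths. The part of these differences in the results below was not tested, except that the selection was repeated without each array. Without the fertile 2.2 mm array 31 probe sets were selected and 17 of them were kept on the sterile arrays in the sense given below, and without the fertile 2.0 mm array 70 were selected and 13 of them kept.

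The 11 probe sets fell into 3 classes on the sterile arrays, defined without a test. A probe set was called kept when its lowest sterile signal at 2.2, 2.5 and 3.0 mm was at least 0.5 times the lower of its sterile 1.5 and 2.0 mm signals. It was called lost when it met the 4-fold criterion on the sterile arrays too, and partial when it lay between these limits. Low early was assigned first: a probe set under 100 on at least 1 of the short sterile arrays got this class whatever its later signals. Of the 11 probe sets, 5 (45.5%) were kept, 4 (36.4%) were partial, 2 (18.2%) were low early, and 0 were lost. Among the 12883 probe sets with a lower early fertile signal of at least 100, 11506 (89.3%) were kept, 206 (1.6%) were partial, 1171 (9.09%) were low early, and 0 were lost. The kept share of the 11 lay below that of the background and the partial share above it, which was not tested, and the lost class was empty in both. Without the sterile 3.0 mm array 7 of the 11 were kept, now including Ta.16669.1.S1_x_at (0.919 times) and Ta.7389.3.S1_x_at (0.854 times). Ta.9807.1.A1_at (0.469) and Ta.16029.1.S1_at (0.405) stayed partial. The background share without that array was not computed. The 2 low early members, Ta.24155.2.S1_x_at and TaAffx.629.2.S1_s_at, also met the ratio for kept, at 1.57 and 0.909, but were not counted as kept. Low early probe sets of the background were left out of its kept share in the same way.

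**Figure D1:**
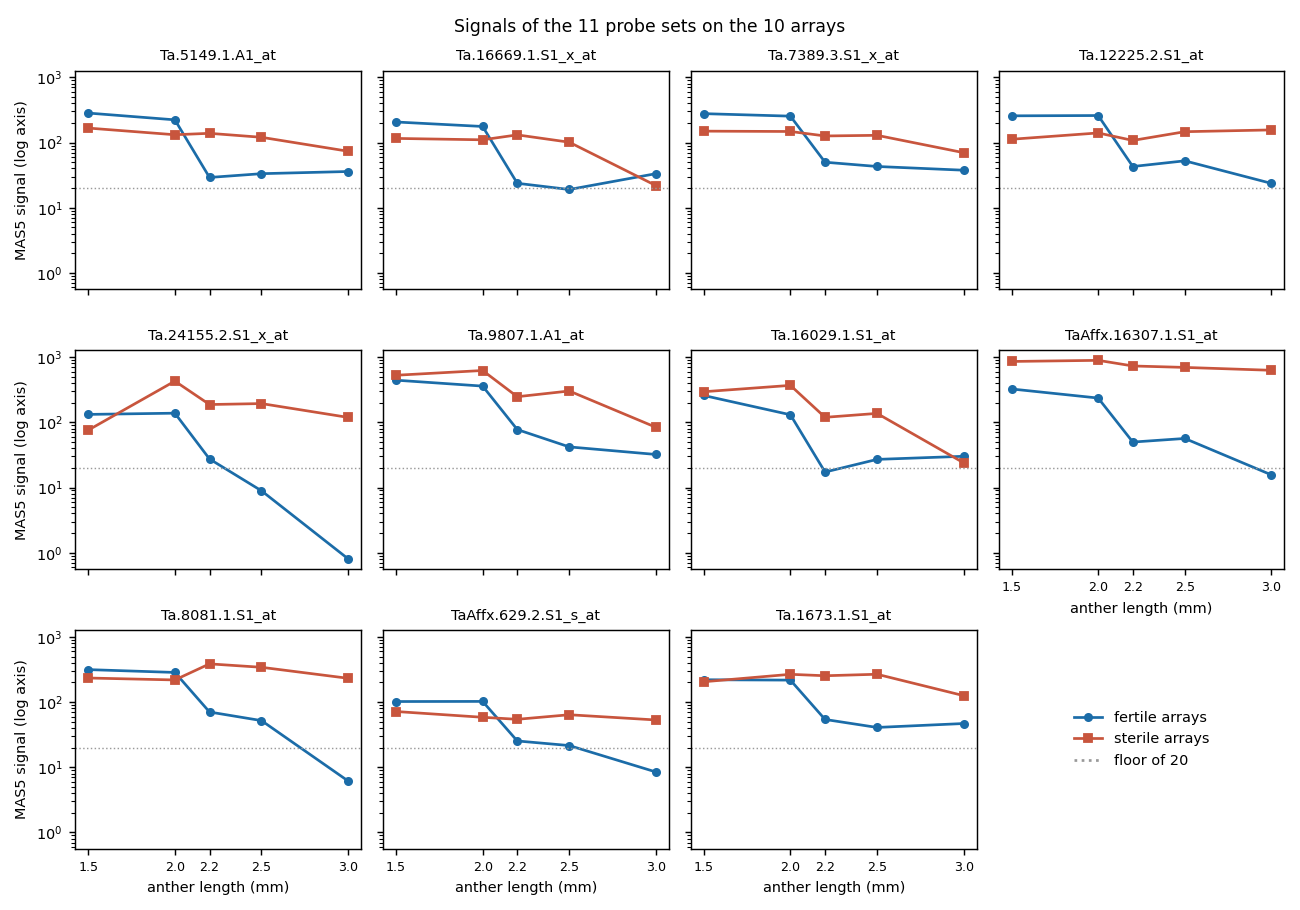
Signals of the 11 probe sets (MAS5 signal, log axis) against anther length in mm, with 1 array per point, blue circles for fertile and red squares for sterile arrays, and a dotted line at the floor of 20. The fertile signals drop between 2.0 and 2.2 mm in every panel because this drop chose the probe sets, whereas the sterile lines stay above the fertile ones at 2.2 and 2.5 mm in all 11 panels and both are close to the floor at 3.0 mm in Ta.16669.1.S1_x_at and Ta.16029.1.S1_at.

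Among the kept probe sets, TaAffx.16307.1.S1_at was the brightest. On the fertile arrays it gave 325 and 236 at 1.5 and 2.0 mm, then 49.8, 56.6 and 15.6 at 2.2, 2.5 and 3.0 mm. On the sterile arrays it gave 858, 893, 732, 696 and 628 in the same order of lengths. It was higher under sterility at every length, including the 2 short ones, and its late sterile signals lay below its early sterile signals without overlap, although by a small step.

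Ta.8081.1.S1_at gave fertile signals of 315, 285, 70.5, 52.0 and 6.17 from 1.5 to 3.0 mm. Its sterile signals were 234, 219, 386, 342 and 232. In short anthers the sterile signal was the lower one, and at 2.2 and 2.5 mm it exceeded both of its own early values. Its sterile late mean was 0.47 log2 units above its early mean, the highest value among the 11.

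For Ta.12225.2.S1_at, the fertile arrays read 257, 259.5, 42.9, 52.4 and 23.6. The sterile arrays read 112, 140.3, 108, 147 and 156. The early signal under sterility was 0.437 and 0.541 times the fertile one, and the early and late sterile values overlapped. The highest sterile signal was the one at 3.0 mm, a length at which the fertile signal was near the floor.

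Ta.1673.1.S1_at had fertile signals of 220.4, 218, 54.2, 40.9 and 46.9. Its sterile signals were 205, 267, 254, 268 and 126. Both conditions started at a similar level, the sterile signal at 2.5 mm was no lower than in short anthers, and at 3.0 mm it was 0.612 times its lower early value.

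Ta.5149.1.A1_at, which had the steepest fertile step of the 11 (6.20-fold), read 283, 223, 29.1, 33.3 and 35.9 on the fertile arrays. Under sterility it read 167, 132, 138, 120.4 and 73.5. The short sterile anthers were dimmer than the fertile ones, and the sterile 3.0 mm value was 0.558 times the lower early one, just inside the limit for a kept probe set.

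The 4 partial probe sets had their lowest sterile signal at 3.0 mm. Ta.16029.1.S1_at had fertile signals of 258, 131, 17.3, 27.0 and 30.1 and sterile signals of 295, 369, 119, 137 and 23.9. Here the sterile signals stood at 3 levels, high in short anthers, intermediate at 2.2 and 2.5 mm and near the floor at 3.0 mm, where the 2 conditions are not ordered. Its late minus early difference of -2.17 log2 units on the sterile arrays was the lowest of all 12883 probe sets that were bright in short fertile anthers.

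Ta.9807.1.A1_at, the brightest of the 11 in short fertile anthers, read 443, 359, 77.4, 42.0 and 32.1 on the fertile arrays. On the sterile arrays it read 527, 624, 247, 302 and 84.0. Every sterile value was above the fertile value of the same length, and the sterile signals were again intermediate at 2.2 and 2.5 mm, but the one at 3.0 mm was still over 4 times the floor.

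Ta.16669.1.S1_x_at had fertile signals of 207, 176, 23.7, 19.0 and 33.3. Its sterile signals were 116, 110.1, 131, 101 and 21.9. The sterile signals from 1.5 to 2.5 mm lay within 101 to 131, and the one at 3.0 mm was near the floor, as was the fertile one. Ta.7389.3.S1_x_at read 277, 254, 49.9, 42.9 and 37.6 in fertile anthers and 149.6, 148, 126, 129 and 69.9 in sterile anthers. Its sterile signals likewise lay close together up to 2.5 mm, and that at 3.0 mm was 0.473 times its lower early value, which placed it just outside the kept class.

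The 2 low early probe sets were under 100 on at least 1 of the short sterile arrays. Ta.24155.2.S1_x_at read 132, 138, 27.4, 8.91 and 0.806 on the fertile arrays and 75.9, 429, 188, 194 and 119 on the sterile ones. All 4 sterile signals after 1.5 mm were above the one at 1.5 mm, so its class rests on the sterile 1.5 mm array. TaAffx.629.2.S1_s_at was the dimmest, with 102, 102.5, 25.4, 21.6 and 8.48 in fertile anthers and 71.8, 58.5, 54.5, 64.0 and 53.2 in sterile anthers. Its sterile signal was almost level over the 5 lengths, and the lowest late value was 0.909 times the lower early one.

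Viewed array by array, the median signal of the 11 was 258 and 223 on the short fertile arrays, then 42.9, 40.9 and 30.1. On the sterile arrays the median was 167, 219, 138, 147 and 84.0. All 11 were at or above 100 in both short fertile samples and 0 in the longer ones, by selection, whereas 9, 10, 10, 10 and 5 reached 100 on the sterile arrays from 1.5 to 3.0 mm. Of the 12883 bright probe sets, 92.9%, 93.7%, 94.8%, 94.1% and 93.8% did so in the same order, so only the count at 3.0 mm lay well below the background share.

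**Figure D2:**
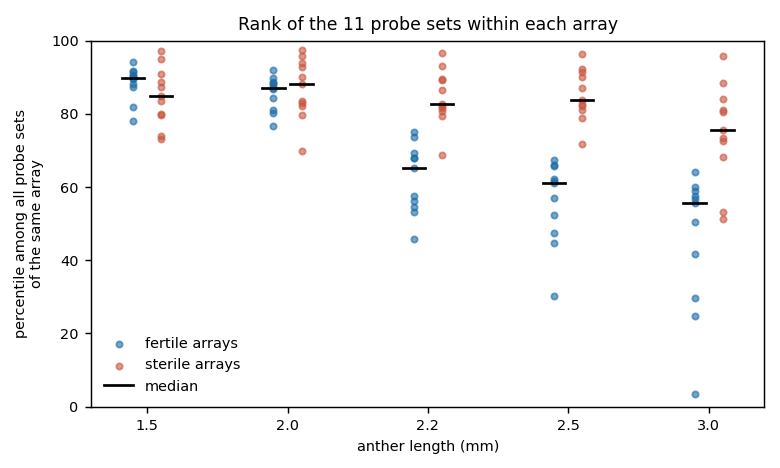
Percentile of each of the 11 probe sets among all probe sets of the same array, against anther length in mm, with blue points for fertile arrays, red points for sterile arrays, and black bars for the medians. The fertile median dropped, by selection, from 87.2 at 2.0 mm to 65.2 at 2.2 mm, and the sterile median went from 88.1 to 82.8.

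Ranks within an array do not depend on its overall scale. On the fertile arrays the fall in rank follows from the selection, so only the sterile ranks are independent of it. The median percentile of the 11 was 89.7, 87.2, 65.2, 61.1 and 55.5 on the fertile arrays and 84.8, 88.1, 82.8, 83.7 and 75.5 on the sterile arrays. The lowest sterile percentile was 51.2, reached at 3.0 mm.

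Compared at equal length, the sterile signal was a median of 0.703 and 0.767 times the fertile signal at 1.5 and 2.0 mm, and 4.75, 5.08 and 2.66 times at 2.2, 2.5 and 3.0 mm, with the floor of 20 under both. At least 2-fold higher sterile signals were found for 1 and 3 of the 11 at the short lengths and for 11, 11 and 8 at the longer ones. Of the 12883 bright probe sets, 0.947%, 0.652%, 8.98%, 6.23% and 13.3% had such a difference from 1.5 to 3.0 mm. The selection used the fertile side of these ratios, so nothing is read from the contrast. The 3 at 2.0 mm were TaAffx.16307.1.S1_at (3.79-fold, and 2.64-fold at 1.5 mm), Ta.24155.2.S1_x_at (3.10-fold) and Ta.16029.1.S1_at (2.82-fold). At 1.5 mm the sterile signal was the lower one in 8 of the 11, and at 2.0 mm in 6.

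**Figure D3:**
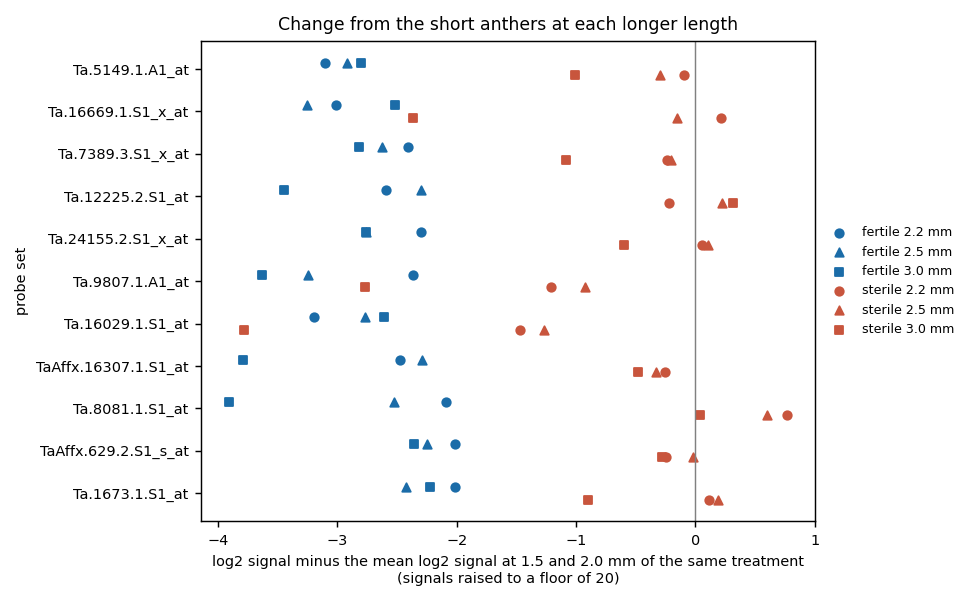
Log2 signal at 2.2 mm (circles), 2.5 mm (triangles) and 3.0 mm (squares) minus the mean log2 signal at 1.5 and 2.0 mm of the same condition, for each probe set, in blue for fertile and red for sterile arrays. All fertile points lie below -2, and most sterile points lie between -1 and 1, apart from the 2.2, 2.5 and 3.0 mm points of Ta.16029.1.S1_at, the 2.2 and 3.0 mm points of Ta.9807.1.A1_at and the 3.0 mm points of Ta.16669.1.S1_x_at, Ta.7389.3.S1_x_at and Ta.5149.1.A1_at.

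The mean log2 signal of the 3 longer minus that of the 2 shorter lengths summarised each series. On the fertile arrays the 11 ranged from -3.08 to -2.20 (median -2.84), against a median of -0.21 for the 12883 bright probe sets. On the sterile arrays they ranged from -2.17 to 0.47 (median -0.36), and 9 of the 11 were below 0. The bright set had a sterile median of -0.03, with 53.7% below 0. By single length the sterile medians of the 11 were -0.22 at 2.2 mm, -0.16 at 2.5 mm and -0.90 at 3.0 mm, while those of the bright set were -0.03, -0.04 and -0.02. In the median of the 11, the lower late signals under sterility were therefore mainly those of the 3.0 mm array, and without it this median was -0.13. Single members differed: without that array 6 of the 11 were below 0, with Ta.16029.1.S1_at at -1.37 and Ta.9807.1.A1_at at -1.07 log2 units. Of the bright set, 53.4% were below 0 at 2.2 mm alone and 54.8% at 2.5 mm alone. The count of 6 therefore says nothing particular to the 11.

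This sterile difference was tested with limma over the 5 sterile arrays, the lengths in each class standing in for replicates (3 residual degrees of freedom). The test sets the difference against the spread among lengths within a class. That spread holds real change with length as well as array error, and the test cannot separate them. For Ta.16029.1.S1_at the SE was 0.65 with the sterile 3.0 mm array and 0.17 without it. All 11 probe sets passed the filter on dim signals, which used the sterile arrays only. After Benjamini-Hochberg adjustment over the 30590 probe sets tested, 0 of the 11 were called lower and 0 of all probe sets were called in that direction (0%), with a lowest adjusted p of 0.0589. At an unadjusted p under 0.05, limma gave 4666 probe sets (15.3%) in either direction, 2425 of them lower (7.93%), and 3 of the 11 were lower. These were Ta.16029.1.S1_at (-2.17 ± 0.65 log2 units, SE, limma adjusted p = 0.19), Ta.9807.1.A1_at (-1.64 ± 0.47, limma adjusted p = 0.17) and TaAffx.16307.1.S1_at (-0.36 ± 0.12, limma adjusted p = 0.22). The other 8 had differences of -0.77 to 0.47 with limma adjusted p-values of 0.35 to 0.94. When a straight line on anther length replaced the 2 classes, limma called 742 probe sets, 450 higher and 292 lower (0.955%), the lower ones including Ta.16029.1.S1_at (-2.45 log2 units per mm, adjusted p = 0.029) and Ta.9807.1.A1_at (-1.79 per mm, adjusted p = 0.033). Without the sterile 3.0 mm array, 71 were called, 46 higher and 25 lower (0.0817%), the lower ones including Ta.16029.1.S1_at (-1.37, limma adjusted p = 0.039). With 5 arrays, a p-value that misses the threshold does not show that a transcript stayed level.

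The same 4-fold criterion applied to the sterile arrays found 0 probe sets, although 12516 had a lower early sterile signal of at least 100. The highest ratio of lower early to highest late signal was 3.76 over these, and 2.15 among the 11 (Ta.16029.1.S1_at). At 2-fold the criterion was met by 168 probe sets on the fertile and 28 on the sterile arrays, with 1 in common (0.595% of the first and 3.57% of the second). At 3-fold it was met by 38 and 3, with 0 in common, where lists this short among so many probe sets leave little room for any overlap. Of the 38, 19 were kept on the sterile arrays, against 89.3% of the bright probe sets by the same definition of kept. For the opposite pattern, the lowest signal of the 3 longer anthers had to be at least 100 and at least 4 times the highest signal of the short ones. It was met by 54 probe sets on the fertile and 3 on the sterile arrays. In the plot of counts by fold the sterile count is below the fertile one at each fold and in both directions, a difference that was not tested.

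**Figure D4:**
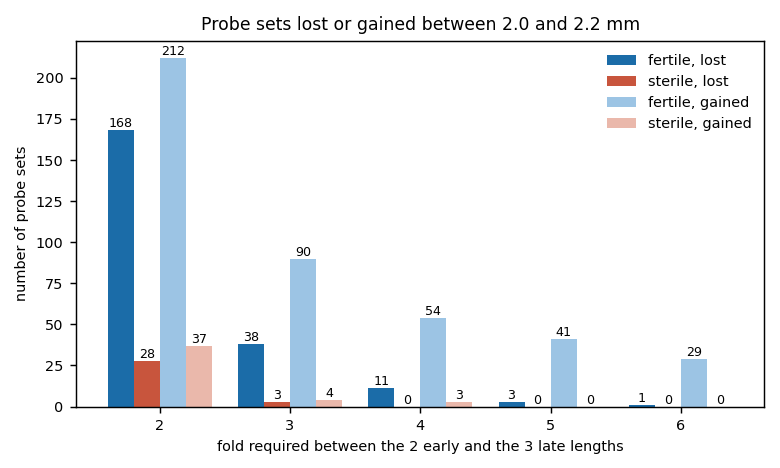
Number of probe sets (vertical axis, from 0) whose 2 short and 3 long anther lengths were separated by at least the fold on the horizontal axis, lost or gained with length, on fertile (blue) and sterile (red) arrays, with the brighter side at or above a signal of 100. At 4-fold, 11 were lost and 54 gained on the fertile arrays, against 0 and 3 on the sterile arrays.

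Just inside the edge of the selection were Ta.1673.1.S1_at (4.01-fold) and TaAffx.629.2.S1_s_at (4.03-fold). Just outside it were Ta.28188.1.S1_at (3.88-fold; fertile 326, 309, 56.5, 79.6 and 5.92, sterile 373, 239.9, 168, 343 and 237) and Ta.9458.2.S1_x_at (3.87-fold; fertile 491, 615, 112, 57.8 and 127, sterile 515, 747, 815, 847 and 395). Both of these outer probe sets retained their signal under sterility in the same manner as the kept members.

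No gene is paired with any of the 11 in the annotation used here, which names a gene for 1273 probe sets and for 565 of the 12883 bright ones, so no function is assigned to them. The plain suffix _at was carried by 7, _x_at by 3 (27.3%, against 11.1% of all probe sets) and _s_at by 1 (9.09%, against 4.31%). The last 2 suffixes mark probe sets that can read several related transcripts, and for these 4 a signal may be the sum over homoeologs or a gene family. Wheat is hexaploid, and whether the 7 with the plain suffix read single homoeologs was not tested.

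Other probe sets with the same identifier stem existed for 4 of the 11. Those with the stem Ta.7389 had similar courses. Ta.7389.1.S1_x_at read 331, 308, 81.1, 40.9 and 35.2 in fertile and 194, 209, 157, 157 and 78.6 in sterile anthers, and missed the criterion at 3.80-fold. Ta.7389.2.A1_x_at (3.18-fold) and Ta.7389.1.S1_a_at (2.81-fold) were alike. A second probe set, Ta.24155.2.S1_s_at, repeated the course of Ta.24155.2.S1_x_at, with 159, 97.6, 10.7, 11 and 3.08 in fertile and 78.0, 398, 209, 189.7 and 113 in sterile anthers, including the sterile peak at 2.0 mm. The third with this stem, Ta.24155.1.S1_x_at, reached 125 on the sterile 2.0 mm array and read at most 62.7 on the others. Probe sets with a shared stem may read the same molecules and are not independent evidence. The 2 others with the stem Ta.12225 and the 4 others with the stem TaAffx.629 were below 100 on all arrays and showed no comparable step.

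Among annotated genes, chosen after their values were seen as those nearest to the criterion, Ta.204.1.S1_at (LOC542836) reached 3.79-fold. Its signals were an order of magnitude above most of the 11, with 2622, 2042, 538, 329.8 and 157 in fertile and 3558, 3380.1, 2289, 2519 and 1524 in sterile anthers. It followed the course of the partial class, the sterile 3.0 mm value being 0.451 times its lower early one. Ta.14281.1.S1_at (LOC542796, 2.64-fold) read 755, 748, 283, 208 and 233 in fertile and 1269, 1116, 931, 1030.3 and 642 in sterile anthers, which would make it kept.

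Gene groups with known roles gave a scale for these changes. Histone H2A, H2B and high mobility group genes, which package DNA in dividing cells, were represented by 20 probe sets of 6 genes, 19 of them bright. Their median late minus early difference was -1.25 log2 units on the fertile and -0.31 on the sterile arrays. None of them reached a ratio above 1.91 between the lower early and the highest late fertile signal. In the 11 the larger fertile fall was set by the selection, so nothing is read from a likeness to these genes. Tubulin genes, which form microtubules, had medians close to 0, at -0.21 and -0.11 over 9 bright probe sets. In the tapetum list the 4 bright probe sets were those of raftin1a and raftin1b and had medians above 0, at 1.39 and 1.50, as had photosynthesis genes, at 0.98 and 0.57 over 9. These lists are given as counts and medians with no test, and no probe set in them belongs to the 11.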

How the data were processed

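Total RNA of anthers was labelled with biotin and hybridized to 10 single-colour arrays. The values are intensities: MAS5 signals on a linear scale, deposited by the authors as 1 table of 61290 probe sets; the MAS5 version and scaling target are not given in the sources used here. The 111 control probe sets were left out, and signals were raised to a floor of 20 and, for differences, converted to log2. Samples were grouped by condition and length from the labels. There are no replicates, so no SD is given; precision is limited by the small number of arrays.

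The members and the gene lists were chosen with earlier results of these data known. Named probe sets were all those in the extremes of early signal and sterile retention, those at the edge of the criterion and others with the same stem, which here took in all 11. Gene lists were matched by symbol or synonym prefix, case-insensitively. The storage protein list was narrowed, and thionin names were left out of the lists, after the matched names, but not their values, had been seen. A list of meiosis genes matched 0 probe sets, and a list of transcription factors matched 1, which was dim.

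Sterile late against early lengths was tested with limma 3.58.1 in R 4.3.3 (lmFit, eBayes with an intensity trend) on probe sets whose mean log2 sterile signal was at or above the median, with Benjamini-Hochberg adjustment and a threshold of 0.05. The script was tested on simulated data. Alternatives varied the floor, scaling, fold, least signal, filter, model and arrays used.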

Additional observations from a re-analysis of the deposited data

How the results depend on the processing

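Each condition and length had 1 array, so array error and biology cannot be separated, and signals near the floor have no order. The median sterile difference stayed below 0 wherever it could be computed. The number selected, 11, became 7 with a floor of 50, 7 with quantile normalization (6 of them among the 11), 38 at 3-fold, 0 at 8-fold (which leaves no median), 18 with a least early signal of 50 and 7 with 200, and 11 to 70 when each array was left out in turn. The 70 came without the fertile 2.0 mm array, of which 13 were kept. Without the fertile 2.2 mm array, which stood apart in its hybridization controls, 31 were selected, of which 17 were kept; without the fertile 1.5, 2.5 and 3.0 mm arrays 27, 24 and 19 were selected, of which 12, 11 and 9 were kept. The number kept, 5, became 3 with quantile normalization, 19 at 3-fold, 0 at 8-fold, 9 with a least early signal of 50, 3 with 200, 2 when kept required 0.75 times the early signal, and 4 to 17 when arrays were left out. Without the sterile 3.0 mm array it was 7. The share kept over all bright probe sets, 89.3%, was computed with the main settings only. Where a setting also changes the background, as the limit of 0.75 times does, no matching share was computed, and the count is not read as a result about the members. Taking one value per annotated gene was no separate alternative, since no member has a gene. The limma calls over all probe sets, 0, became 18 without the filter (with a prior of few degrees of freedom), 742 with a slope on length and 0 to 71 when arrays were left out, and the members among them became 2 with the slope and 0 to 1. Of 132 values for single probe sets under the limma alternatives, 123 kept their direction and call, 3 passed the threshold and 6 changed sign. The sign changed for Ta.24155.2.S1_x_at with the slope (0.15 per mm) and, when sterile arrays were left out, for Ta.12225.2.S1_at (-0.054 to 0.27), Ta.16669.1.S1_x_at (-1.26 to 0.029), Ta.1673.1.S1_at (-0.39 to 0.15) and Ta.24155.2.S1_x_at (-1.40 to 1.10). The causes were not tested.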
